A study of Mus musculus with 6 samples.

Results

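The nuclear-encoded subunits of respiratory chain complexes II, III, IV and V, with cytochrome c, were compared between metastasis-initiating cells (MICs) and non-MICs from mouse mammary tumors. The members were the protein-coding genes of the deposited table whose symbols name a succinate dehydrogenase, a cytochrome bc1, a cytochrome c, a cytochrome c oxidase or an ATP synthase subunit. This gave 45 of 22310 genes, with 4 in complex II, 9 in complex III, 15 in complex IV, 16 in complex V and 1 for cytochrome c. Atp5s, which is named for ATP synthase but is counted as a coupling factor, was left out. Of 49 annotated genes that match, 4 had no row in the table, namely Cox7b2, Cox8b, Cox8c and a second identifier of Atp5o.

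The cells came from MMTV-PyMT tumors, in which polyoma middle T antigen is driven in the mammary epithelium by the promoter of mouse mammary tumor virus. The labels give the genotype of all samples as WT, the tissue as mammary and the line as MMTV-PyMT, and they give neither an age nor the number of animals behind a library. Both populations lacked the lineage markers (Lin) used in the sort and carried CD24, and MICs (Lin−CD24+CD90+) differed from non-MICs (Lin−CD24+CD90−) by CD90, the product of Thy1. All cells were sorted 1 day after plating in medium with 2% serum, 10 µg/ml insulin and 20 ng/ml EGF, so each group describes cells that had spent that time in culture. There were 3 libraries of each population, numbered 1 to 3, and a pair below is the MIC and non-MIC library of the same number. The labels do not say that the libraries of a group came from separate animals, and the study counts them as independent experiments or tumors without saying which, so p-values measure the spread between these libraries. Values are reads scaled by the authors to 35000000 per library.

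Complex II, succinate dehydrogenase, is the one enzyme shared by the tricarboxylic acid cycle and the respiratory chain, and all its subunits are encoded in the nucleus. Complex III passes electrons from ubiquinol to cytochrome c, complex IV passes them on to oxygen, and complex V uses the proton gradient that results to make ATP. Complexes III, IV and V combine nuclear subunits with a few encoded in mitochondrial DNA, and several nuclear subunits of complex IV exist as isoforms typical of heart and skeletal muscle, lung or testis. The study asked whether mitochondrial metabolism differs between the populations.

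Libraries held between 31467281 and 51759769 reads, recovered from the scaled values, and the replicate 3 libraries of both populations were the deepest. Thy1, on which the cells were sorted, had 1399, 271 and 1117 reads in MICs and 16, 20 and 18 in non-MICs. All 6 luminal epithelial markers looked at were in the table, with a summed value of 231063 to 601083 in MICs against 292076 to 711468 in non-MICs. All 6 basal markers were also present, with summed values of 23682 to 403907 in MICs against 23952 to 140069 in non-MICs, and MIC replicate 1 was the highest of all. Of these 6, Acta2, Myh11, Krt5 and Trp63 were higher in MICs in every pair. The first 3 were called by limma with the replicate number as a block (adjusted p = 3.1e-05, 6.3e-05 and 0.012). Krt14 and Krt17 were higher in MICs in pairs 1 and 3 but lower in pair 2, at 2946 against 5507 and 15878 against 17303. Their log2 differences were -0.10 and 0.41. Acta2, the smooth muscle actin of contractile basal cells, was at 230574, 3765 and 9839 in MICs against 48582, 724 and 1581 in non-MICs, a log2 difference of 2.42, and those of Myh11 and Krt5 were 2.58 and 2.23. The summed values of 6 fibroblast markers spanned 636 to 1973 in MICs against 555 to 874 in non-MICs. Col1a2, Dcn, Lum and Pdgfra were higher in MICs in every pair, with log2 differences of 1.74, 1.57, 1.22 and 0.30. Lum had at most 14 reads in a library. Col1a1 was higher in MICs in pair 3 alone, and Pdgfrb in pairs 2 and 3. The lowest adjusted p of the 6 in limma with the block was 0.073, for Col1a2. The summed values of 4 immune markers spanned 143 to 1710 in MICs and 140 to 949 in non-MICs. Lyz2 made up most of the replicate 2 sums, at 31.3, 1635 and 142 in MICs against 46.6, 834 and 137 in non-MICs. Ptprc, which encodes CD45, had at most 14 reads in a library. The 4 endothelial markers summed to 31.1 to 50.7 in MICs against 14.8 to 42.8 in non-MICs, and the 3 adipocyte markers to 21.6 to 36.7 and 21.1 to 30.9. Of 4 skeletal muscle markers, Ckm had at most 3 reads, and their sum of 1339 to 17292 in MICs against 519 to 6651 in non-MICs came almost wholly from the actin gene Acta1, which was higher in MICs in every pair and was called with the block (limma, adjusted p = 0.0014). The part of cell composition in the results was not tested, and in bulk RNA fewer cells of a type cannot be told apart from less RNA per cell.

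Most subunit genes had higher values in the MIC than in the non-MIC library of pairs 1 and 2, and were nearly level in pair 3. The median difference of the 45 members was 0.34 on the log2 scale, against -0.04 over all genes. The members' medians in pairs 1, 2 and 3 were 0.47, 0.59 and -0.02, where those of all genes were -0.02, 0.04 and -0.05. A member was higher in MICs 41 times of 45 in pair 1, 32 times in pair 2 and 20 times in pair 3, while the shares of all genes that were higher were 45.2%, 53.5% and 35.8%. In pair 3, 34 of the 45 members lay within 0.1 of no difference, against 32.4% of all genes and 55.5% of the 6542 genes with a mean value of at least 1000. Differences over those 6542 genes were less spread in pair 3, with an SD of 0.21, compared with 0.51 in pair 1 and 0.47 in pair 2. Not every gene had a smaller difference in pair 3. Acta2 was at 9839 in MICs against 1581 in non-MICs there, and at 230574 against 48582 in pair 1.

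No member passed an adjusted p of 0.05 in the limma test without a block on the replicate number. The lowest adjusted p for a member was 1.00 in this test, and 0% of all genes were called. At an unadjusted p below 0.05 there was 1 member, Sdhd, higher in MICs, and there were 322 genes in all, 0.708% of the table higher and 0.735% lower. With the replicate number as a block, limma again called 0 members, with a lowest adjusted p of 0.42, while 0.13% of all genes (29) were called. At an unadjusted p below 0.05 this fit had 14 members higher in MICs and 0 lower, against 5.24% and 5.97% of all genes. edgeR called 0 members without and with the block, and 0% and 1.41% (315) of all genes. Its lowest adjusted p for a member was 0.155, with the block. DESeq2 also called 0 members in either form, and 0.00452% and 0.889% of the genes it gave an adjusted p, with 2 and 18 members at an unadjusted p below 0.05, all higher in MICs, against 0.998% and 5.12% of the genes it gave a p.

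**Figure D1:**
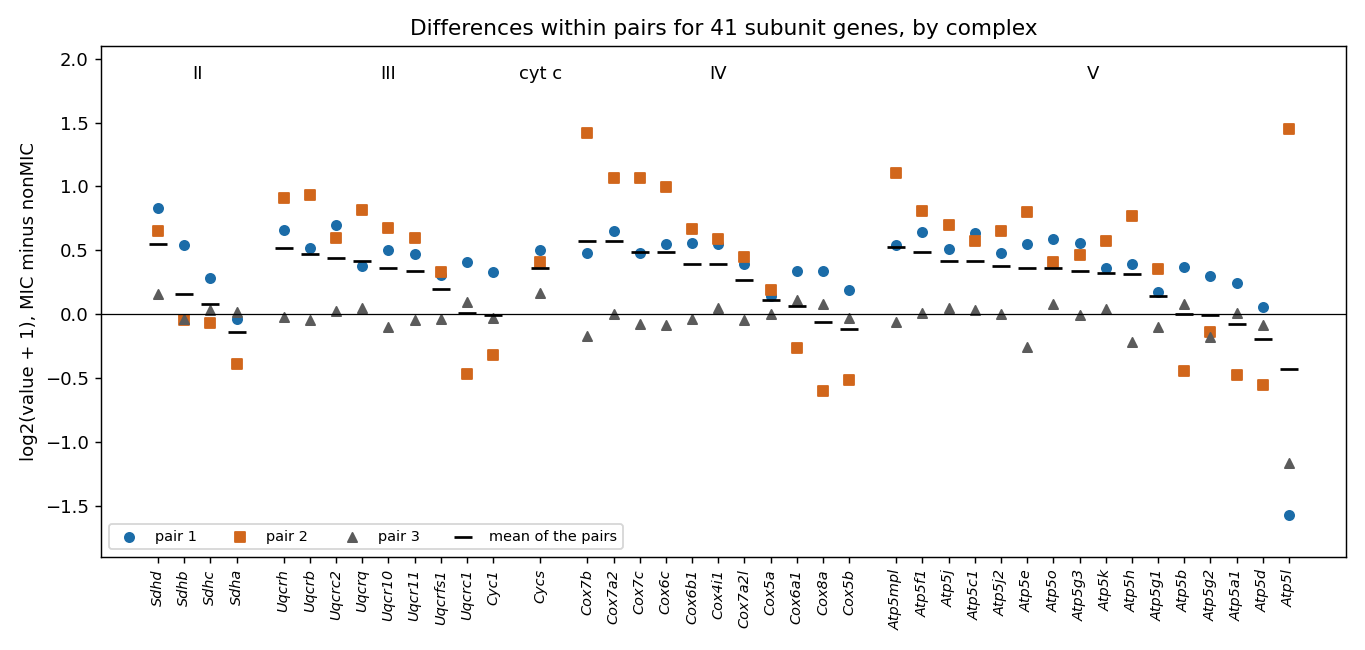
Difference between MICs and non-MICs within each pair for the 41 members with at least 20 reads in every library, ordered by complex on the horizontal axis, with the log2 difference on the vertical axis. Circles, squares and triangles are pairs 1, 2 and 3 and the bar is their mean. Most circles and squares lie above 0 and most triangles lie close to it.

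The direction was the same in every pair for some of these genes. Of the 45 members, 13 (28.9%) were higher in MICs in all 3 pairs, as were 12.5% of all genes. Lower in all 3 pairs were 0 members, against 18.8% of all genes. The 13 were Sdhd, Uqcrc2, Uqcrq, Cycs, Cox4i1, Cox5a, Cox7a2, Atp5c1, Atp5f1, Atp5j, Atp5j2, Atp5k and Atp5o. In 5 of them, Sdhd, Uqcrc2, Cycs, Cox7a2 and Atp5j2, every MIC library was above every non-MIC library, and 2.69% of all genes showed that pattern. No member had every MIC library below every non-MIC library, which 3.55% of all genes had.

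Complex II was split, with one subunit higher in MICs and the catalytic ones near level. Its median difference was 0.12. Sdhd, one of the membrane anchors that bind ubiquinone, was at 7439, 7161 and 5982 in MICs against 4173, 4572 and 5371 in non-MICs. The MIC values were all above the non-MIC values, and the pair differences were 0.83, 0.65 and 0.16. The mean log2 difference of Sdhd was 0.55 ± 0.19 (SE, n = 3 libraries per population; limma, unadjusted p = 0.024, adjusted p = 1.00), a fold of 1.46. With the block the adjusted limma p was 0.42. The other anchor, Sdhc, was at 3617, 3218 and 3293 in MICs against 2970, 3386 and 3228 in non-MICs, so the groups overlapped and the difference was 0.08 ± 0.18 (SE).

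The 2 subunits that face the matrix overlapped between the populations. Sdha, the flavoprotein that oxidizes succinate, was at 7381, 6200 and 8576 in MICs against 7566, 8132 and 8503 in non-MICs, with MIC replicate 2 the lowest of the 6. The difference was -0.14 ± 0.19 (SE). Sdhb, the iron-sulfur subunit, was at 4302, 3132 and 2285 in MICs against 2954, 3229 and 2341 in non-MICs, with the lowest values in the replicate 3 libraries of both populations. Its difference was 0.15 ± 0.27 (SE), and it was higher in MICs in pair 1, by 0.54, and at -0.04 in both other pairs. The complex II median was -0.02 without MIC replicate 1, -0.03 without pair 1, 0.05 without non-MIC replicate 3, 0.19 without non-MIC replicate 2, 0.21 without pair 2, 0.18 without pair 3 and 0.24 without MIC replicate 3.

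The start regions of some members are shown because nuclear respiratory factor 1 (NRF1) is known to act on many respiratory chain genes. RefSeq promoters on GRCm38.p6, running from 250 bases before to 50 after the start, were found for 34 members, Atp5f1 under its newer symbol Atp5pb. Both strands were searched for GCGC and TGCGC with 1 free base between them (NRF1), AANATGGCG (YY1), CCGGAAGT (ETS), CCAAT and TATAAA, and matches may overlap. The NRF1 letters were in 10 of 34 members (29.4%) and in 5.19% of all 27025 genes with a promoter entry. YY1 letters were in 3 members (8.82%) and 2.76% of all, ETS letters in 4 (11.8%) and 4.31%, CCAAT in 19 (55.9%) and 41.1%, and TATAAA in 1, Atp5l (2.94%), and 15.7%. Some motif among NRF1, YY1 and ETS was in 16 of the 34 (47.1%) and in 11.2% of all genes. The members with the NRF1 letters had a median log2 difference of 0.32, between -0.14 and 0.55, and the 24 without them had 0.35, between -0.43 and 0.64. Those medians were 0.40 and 0.48 in pair 1, 0.44 and 0.64 in pair 2, and 0.03 and -0.04 in pair 3. The ranges of the groups overlapped, and a match is a description of letters and not of binding.

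Sdha and Sdhd both hold the NRF1 letters, although they are the lowest and the highest of complex II, and Atp5k holds them too. Cycs, which was higher in MICs in all 3 pairs, has an exact match to CCAAT alone among these motifs. Near matches were not counted. The 120 bases before the start of each are given on the minus strand, 5′ to 3′, with the matches to the 5 motifs in capitals.
Sdha, chr13:74350241-74350360: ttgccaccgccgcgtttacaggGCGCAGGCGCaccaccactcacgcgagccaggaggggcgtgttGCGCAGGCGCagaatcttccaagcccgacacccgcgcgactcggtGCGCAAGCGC
Sdhd, chr9:50603850-50603969: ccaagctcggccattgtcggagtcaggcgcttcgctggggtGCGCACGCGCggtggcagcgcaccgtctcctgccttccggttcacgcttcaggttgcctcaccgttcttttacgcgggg
Atp5k, chr5:108434400-108434519: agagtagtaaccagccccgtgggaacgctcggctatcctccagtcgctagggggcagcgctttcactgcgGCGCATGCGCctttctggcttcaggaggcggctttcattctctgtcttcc
Cycs, chr6:50566570-50566689: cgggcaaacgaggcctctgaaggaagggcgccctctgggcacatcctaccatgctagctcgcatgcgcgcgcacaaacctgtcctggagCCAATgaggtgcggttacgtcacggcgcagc

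In complex III most subunits were above 0 in pairs 1 and 2, which the catalytic cytochrome c1 was not. The median of the 9 genes was 0.36, with pair medians of 0.47, 0.59 and -0.03. All 9 were higher in MICs in pair 1, 7 in pair 2 and 3 in pair 3, and 2, Uqcrc2 and Uqcrq, in every pair. Uqcrh, the hinge subunit next to cytochrome c1, had the largest difference. It was at 7799, 10898 and 5315 in MICs against 4934, 5811 and 5388 in non-MICs, and MIC replicate 3 lay inside the range of the non-MICs. The difference was 0.52 ± 0.28 (SE), or 0.66, 0.91 and -0.02 by pair.

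Uqcrb, which helps to bind ubiquinone, came next with 4337, 4848 and 3499 in MICs against 3030, 2542 and 3618 in non-MICs. Its replicate 3 libraries were again level, and the difference was 0.47 ± 0.22 (SE). Uqcrc2, a core scaffold subunit, was at 9300, 8360 and 7703 in MICs against 5732, 5543 and 7564 in non-MICs. These groups did not overlap, though MIC replicate 3 and non-MIC replicate 3 differed by 0.03 on the log2 scale. The mean difference of Uqcrc2 was 0.44 ± 0.20 (SE).

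The subunits that carry electrons were closer to level. Uqcrfs1, the Rieske iron-sulfur protein, was at 5232, 4579 and 3854 in MICs against 4242, 3646 and 3965 in non-MICs, with a difference of 0.20 ± 0.20 (SE). Cyc1, cytochrome c1, had the lowest difference of the complex and was at 7078, 4071 and 4858 in MICs against 5639, 5099 and 4972 in non-MICs. The MIC libraries were both the highest and the lowest of the 6, and the difference was -0.01 ± 0.24 (SE). Its sign changed with the normalization. The core subunit Uqcrc1 had a similar course, with pair differences of 0.41, -0.47 and 0.09. The complex III median was 0.16 without MIC replicate 1, 0.17 without MIC replicate 2, 0.18 without non-MIC replicate 3, 0.60 without MIC replicate 3, 0.59 without pair 3 and 0.21 without pair 2.

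Cytochrome c, the mobile carrier between complexes III and IV, was higher in MICs in every pair. Cycs was at 3458, 3077 and 2634 in MICs against 2444, 2315 and 2350 in non-MICs. The non-MIC values lay within a narrow range, below all 3 MIC values. The difference was 0.36 ± 0.19 (SE), a fold of 1.28, and limma gave an adjusted p of 1.00 without the block and of 0.43 with it. Pair differences were 0.50, 0.41 and 0.16. After centring on transcript GC and length, an alternative chosen after the data were seen, the mean difference was 0.09. The centred pair differences were 0.34, -0.25 and 0.20, so pair 2 was then below 0. Of the 75-base words of its transcript, 26.1% also occur in other annotated genes.

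**Figure D2:**
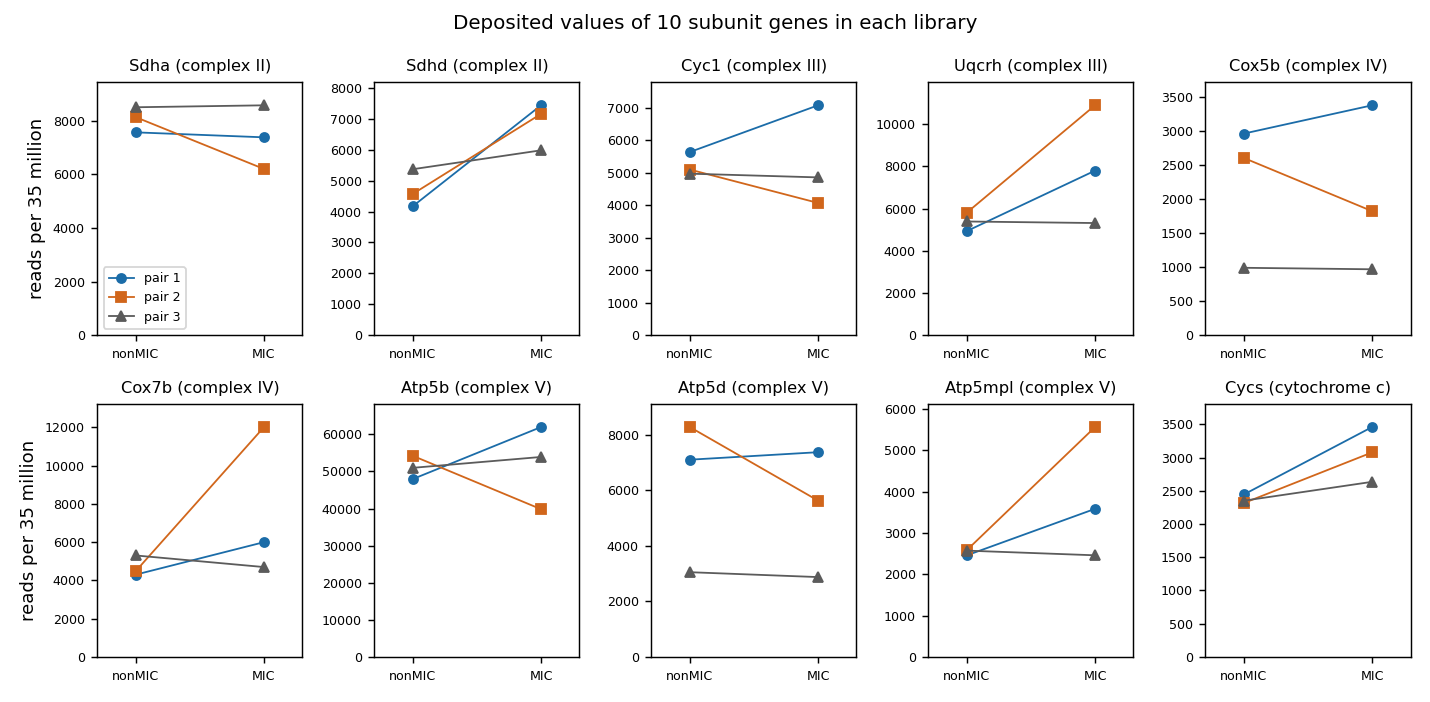
Deposited values (reads per 35000000) of 10 members in non-MIC and MIC libraries, with a line for each pair and the vertical axis starting at 0. The lines of Sdhd and Cycs go up from non-MIC to MIC in all 3 pairs, while those of Cyc1, Cox5b, Atp5b and Atp5d go up in pair 1 and down in pair 2.

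Complex IV had a median of 0.39, the largest of the complexes in this fit, with pair medians of 0.39, 0.63 and -0.04. That rank did not hold under every alternative. With only genes of a mean value of at least 10, the complex IV median was 0.33, below the 0.36 of complex III. Of its 15 genes, 13 were higher in MICs in pair 1, 11 in pair 2 and 5 in pair 3, and 4 of the 15 had fewer than 20 reads in some library. Among the 11 with at least 20 reads in every library, Cox7b, Cox7a2, Cox7c and Cox6c, which encode small subunits, were highest, and Cox5b and Cox8a were lowest. Cox7b was at 5996, 12013 and 4694 in MICs against 4299, 4487 and 5300 in non-MICs. MIC replicate 2 stood far above the other 5 libraries, at a pair difference of 1.42, and pair 3 was at -0.18. The mean difference of Cox7b was 0.58 ± 0.34 (SE).

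Cox7a2 had the same mean, 0.57 ± 0.26 (SE), from 7456, 9733 and 5170 in MICs against 4750, 4638 and 5163 in non-MICs. Its groups did not overlap, but the pair 3 difference was 0.00. Cox4i1, a subunit at which ATP regulates the enzyme, was at 15288, 21688 and 10048 in MICs against 10456, 14407 and 9750 in non-MICs, with a difference of 0.39 ± 0.31 (SE). Cox5a, its neighbor in the complex, was at 5801, 5569 and 4040 in MICs against 5260, 4887 and 4031 in non-MICs, a difference of 0.11 ± 0.22 (SE).

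Cox5b, the zinc-binding subunit, was at 3371, 1819 and 966 in MICs against 2956, 2598 and 987 in non-MICs. The replicate 3 libraries of both populations were the lowest of the 6, and the difference was -0.12 ± 0.55 (SE). Cox6a1 was at 6416, 4585 and 2194 in MICs against 5080, 5514 and 2028 in non-MICs, and Cox8a at 5320, 3830 and 1677 against 4211, 5813 and 1584. Both were higher in MICs in pair 1, by 0.34 each, and were at -0.27 and -0.60 in pair 2. Cox6b1, which joins the monomers of the complex, was at 9188, 12396 and 6711 in MICs against 6237, 7816 and 6903 in non-MICs, a difference of 0.39 ± 0.26 (SE). Cox7a2l, linked to the assembly of supercomplexes, was at 2488, 3525 and 1833 in MICs against 1895, 2582 and 1894 in non-MICs, a difference of 0.26 ± 0.28 (SE).

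The complex IV median depended on single libraries. It was 0.09 without MIC replicate 2, 0.26 without non-MIC replicate 1, 0.20 without pair 2 and 0.57 without MIC replicate 3, and with a pseudocount of 10 it was 0.24. Ndufa4, long listed with complex I and now placed in complex IV, is not a member, and its reads were 8496, 13370 and 10493 in MICs against 5908, 5980 and 11243 in non-MICs, a log2 difference of 0.54.

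The tissue isoforms were close to the counting limit in both populations. Cox4i2, the isoform typical of lung, had 0, 0 and 1 reads in MICs and 0, 1 and 3 in non-MICs. Cox6a2, typical of heart and skeletal muscle, had 1, 2 and 0 against 1, 0 and 0. Reads of Cox6b2, typical of testis, were 5, 8 and 12 in MICs against 2, 4 and 12 in non-MICs, and those of Cox7a1, of heart and skeletal muscle, were 12, 24 and 41 against 24, 16 and 46. No fold is given for the first 2, since every library was at or under 3 reads, and none of the 4 was called by limma, edgeR or DESeq2, with or without the block. Per kilobase of transcript, the mean scaled value was 17786 for Cox4i1 and 0.872 for Cox4i2, 7536 for Cox6a1 and 1.07 for Cox6a2, 13282 for Cox6b1 and 10.6 for Cox6b2, and 9335 for Cox7a2 and 60.2 for Cox7a1. The common isoform was thus above the tissue isoform in every library by more than the spread between libraries.

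**Figure D3:**
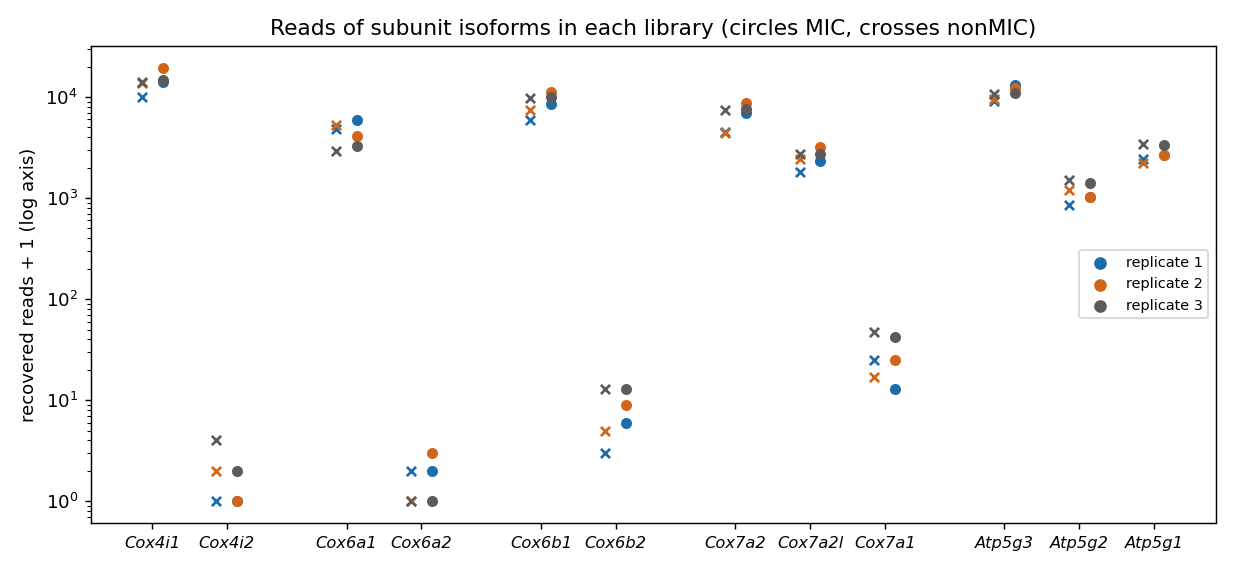
Recovered reads plus 1 (log axis) of subunit isoforms in each library, circles for MICs and crosses for non-MICs, colored by replicate number. Cox4i2 and Cox6a2 have at most 3 reads in any library, Cox6b2 at most 12 and Cox7a1 at most 46, and the other isoforms lie above all of these.

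The subunits of complex V did not move together. The median of its 16 genes was 0.33, with pair medians of 0.43, 0.57 and 0.00, and 15 of the 16 were higher in MICs in pair 1, 12 in pair 2 and 8 in pair 3. Within the F1 head, which makes ATP, the subunits parted in pair 2. Atp5a1, the alpha subunit, was at 32798, 21535 and 28177 in MICs against 27694, 30008 and 28013 in non-MICs. Atp5b, the catalytic beta subunit and the member with the highest level per kilobase, was at 61975, 39828 and 53910 in MICs against 47960, 54216 and 50983 in non-MICs. For both genes MIC replicate 1 was the highest and MIC replicate 2 the lowest of the 6 libraries.

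Pair 2 differences were -0.48 for Atp5a1, -0.44 for Atp5b and -0.56 for Atp5d (delta), but 0.57 for Atp5c1 (gamma) and 0.80 for Atp5e (epsilon). In pair 1 all 5 were above 0, from 0.05 to 0.63. The mean differences of the 5 were -0.08 ± 0.22, 0.00 ± 0.23, -0.20 ± 0.47, 0.41 ± 0.22 and 0.36 ± 0.43 (SE), in that order, and their median was 0.00. Outside the head the median of 11 genes was 0.34, with 10 above 0 in pair 2.

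Among these, Atp5mpl, a small subunit of the membrane part, was at 3584, 5565 and 2459 in MICs against 2459, 2585 and 2573 in non-MICs. The difference was 0.53 ± 0.30 (SE), and MIC replicate 3 lay next to the lowest non-MIC value. Atp5f1, the b subunit of the stalk that holds the head still, was at 11210, 12520 and 7012 in MICs against 7175, 7153 and 6973 in non-MICs, a difference of 0.49 ± 0.25 (SE). The other stalk genes Atp5j, Atp5o and Atp5h had differences of 0.42, 0.36 and 0.31. Atp5j2, of the membrane part, was at 6021, 7107 and 4744 in MICs against 4331, 4535 and 4742 in non-MICs. Its groups did not overlap, and the difference was 0.37 ± 0.21 (SE), with pair 3 at 0.00.

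Subunit c, which forms the rotating ring, is encoded by 3 genes whose mature protein is the same, and Atp5g3 had the largest difference of the 3. Atp5g3 was at 14250, 13780 and 7381 in MICs against 9676, 9993 and 7421 in non-MICs, a difference of 0.34 ± 0.30 (SE). Atp5g1 was at 2875, 2979 and 2251 against 2557, 2335 and 2410, a difference of 0.14 ± 0.20 (SE). Atp5g2 was at 1101, 1140 and 945 against 893, 1259 and 1067, a difference of -0.01 ± 0.23 (SE). Whether the 3 differences are unequal was not tested. The last 120 coding bases before the stop codon are given from GENCODE transcripts, since they show how far the genes can be told apart, with capitals at the 30 positions where the 3 are not all alike.
Atp5g1: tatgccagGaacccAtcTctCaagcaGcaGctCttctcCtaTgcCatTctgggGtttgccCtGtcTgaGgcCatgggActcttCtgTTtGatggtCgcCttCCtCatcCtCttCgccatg
Atp5g2: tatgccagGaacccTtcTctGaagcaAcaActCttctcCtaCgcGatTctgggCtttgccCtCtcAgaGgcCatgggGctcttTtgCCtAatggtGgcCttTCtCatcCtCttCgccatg
Atp5g3: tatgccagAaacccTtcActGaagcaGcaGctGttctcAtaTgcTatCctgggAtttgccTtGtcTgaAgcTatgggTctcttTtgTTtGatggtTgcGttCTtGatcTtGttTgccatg

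Over the stretch of coding sequence compared, which ends with these bases, Atp5g1 and Atp5g2 were 84.9% identical, Atp5g1 and Atp5g3 80.0%, and Atp5g2 and Atp5g3 78.7%. The longest run shared by any 2 of the transcripts was 21 bases, shorter than a 75-base read. Atp5g2 is nevertheless uncertain, since 86.9% of the 75-base words of its transcript occur in other annotated genes. The level of Atp5g1 per kilobase is uncertain as well, because the transcript used is 4715 bases long.

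Atp5l, the g subunit, was the exception in complex V, with few reads and the widest spread. It had 44, 464 and 115 reads in MICs and 135, 178 and 251 in non-MICs. Pair differences were -1.57, 1.45 and -1.17, and the mean difference was -0.43 ± 0.83 (SE). Of its 75-base words, 63.4% occur in 9 other annotated genes, and those in the table that were looked at, Gm10221, Gm4853 and Atp5l2-ps, had at most 9 reads. How the counting treated reads that match several genes was not tested. The complex V median was 0.19 without MIC replicate 2, 0.21 without pair 2, 0.50 without MIC replicate 3 and 0.50 without pair 3.

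Other members share sequence with copies too. The share of 75-base words found elsewhere was 50.4% for Cox7c, 40.3% for Atp5h, 29.1% for Uqcrb, 27.1% for Atp5o, 17.2% for Cox5b, 16.6% for Cox6c, 15.4% for Atp5f1 and 15.3% for Cox7a2l. Most copies had few reads, and 3 were high in both replicate 3 libraries. Gm6969, a copy of Cox7a2l, had 18, 12 and 995 reads in MICs and 8, 7 and 845 in non-MICs. Gm5436, a copy of Atp5o, had 54, 39 and 500 against 39, 24 and 450, and Gm11273, a copy of Cox5b, had 7, 3 and 185 against 10, 8 and 196. These 3 copies were chosen after their values were seen.

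Several members differed more between replicate numbers than between the populations. In the replicate 3 libraries of both populations, 15 of 45 members were below all 4 other libraries and 2, Sdha and Cox7a1, above them, where 16.3% of all genes were below and 17.8% above. The mean of the replicate 3 libraries minus that of the others, on the log2 scale, was -1.81 for Uqcr11, -1.76 for Uqcrq, -1.54 for Cox8a, -1.42 for Cox5b, -1.34 for Cox6a1, -1.25 for Atp5d and -1.01 for Atp5e. Uqcr11, a small subunit of complex III, was at 3624, 4813 and 976 in MICs against 2617, 3189 and 1008 in non-MICs. That is 3.50-fold between the replicate numbers, against 1.27-fold between the populations. The same difference was 0.02 and 0.06 for the F1 genes Atp5a1 and Atp5b. In complex II it was 0.23 for Sdha, -0.54 for Sdhb, -0.01 for Sdhc and 0.01 for Sdhd.

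The median of this difference was -0.34 over all members and 0.04 over all genes, and it was -0.52 over the 35 nuclear genes of complex I and -0.19 over 81 cytosolic ribosomal protein genes. By complex, among genes with at least 20 reads in every library, it was 0.00 for complex II, -0.39 for complex III, -0.46 for complex IV and -0.31 for complex V. Over the 41 such members Spearman's rho of this difference was 0.48 with transcript length and -0.37 with transcript GC, as a description of genes that share the same 6 libraries. Over 6500 protein-coding genes with a mean value of at least 1000 it was 0.30 and -0.31.

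Transcript length and GC also moved with the differences between the populations. The members are short, with a median transcript of 765 bases against 2884 for all protein-coding genes. Among protein-coding genes with a mean value of at least 100, the sixth with the shortest transcripts, up to 1618 bases, had median differences of 0.30, 0.22 and -0.04 in pairs 1, 2 and 3. The 33 members in that sixth had 0.48, 0.65 and -0.03. The sixth with the longest transcripts, from 5456 bases, had -0.45, -0.09 and -0.03 and held no member. In pair 2 the sixth lowest in GC had a median of 0.45 and the sixth highest in GC -0.39, and members there had 1.02 (4 genes) and -0.27 (7 genes).

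Differences were therefore also centred within bins of genes of like length and GC, an alternative chosen after the data were seen. The members' median became 0.37, 0.25 and 0.07 in the 3 pairs and 0.24 over them, and 22 members were above 0 in all 3 pairs and 2 below 0 in all 3, against 17.7% and 14.2% of all genes. Members above 0 numbered 38, 30 and 35 in the 3 pairs. For Sdhd the centred differences were 0.59, 0.40 and 0.25.

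**Figure D4:**
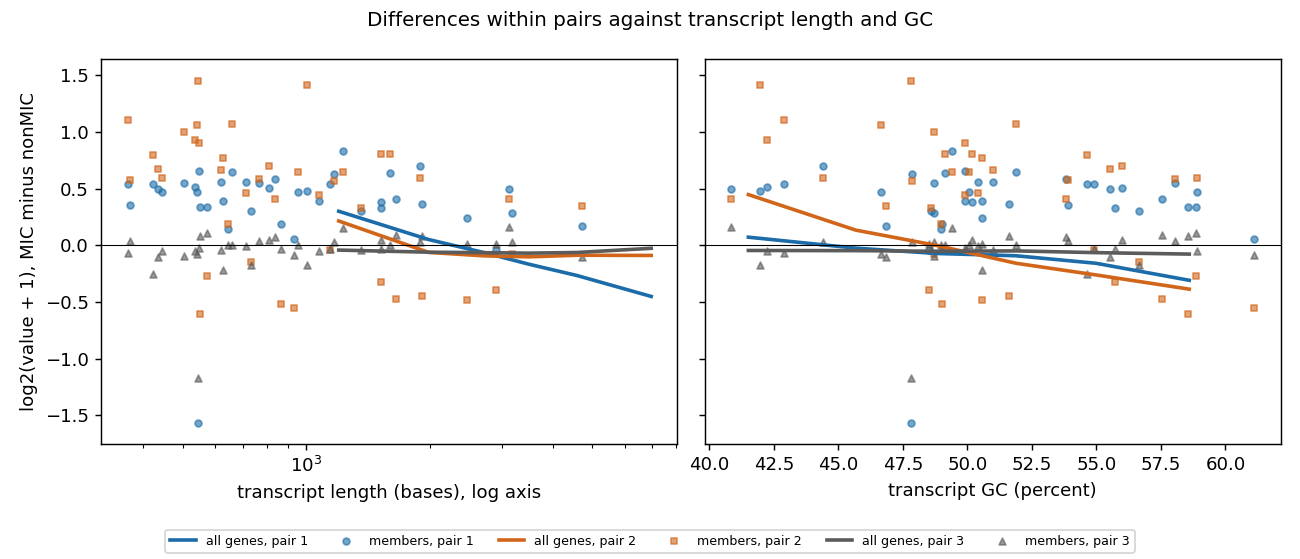
Log2 difference between MICs and non-MICs in each pair against transcript length (log axis, left) and transcript GC (right). Points are the 41 members with at least 20 reads in every library, and lines join the medians of all protein-coding genes with a mean value of at least 100 in 6 bins, drawn at the median of each bin. In pair 1 the line runs from 0.30 down to -0.45 with length, and in pair 2 from 0.45 down to -0.39 with GC.

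The median over all members depended on single libraries as well. It was 0.15 without MIC replicate 2, 0.20 without non-MIC replicate 3, 0.21 without pair 2 and 0.51 without pair 3. Without MIC replicate 3, 18 of the 45 members were at an unadjusted limma p below 0.05, against 1201 of all 22310 genes. Without pair 3, in the fit with the block, 24 of the 45 were, against 2274 of the 22310.

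**Figure D5:**
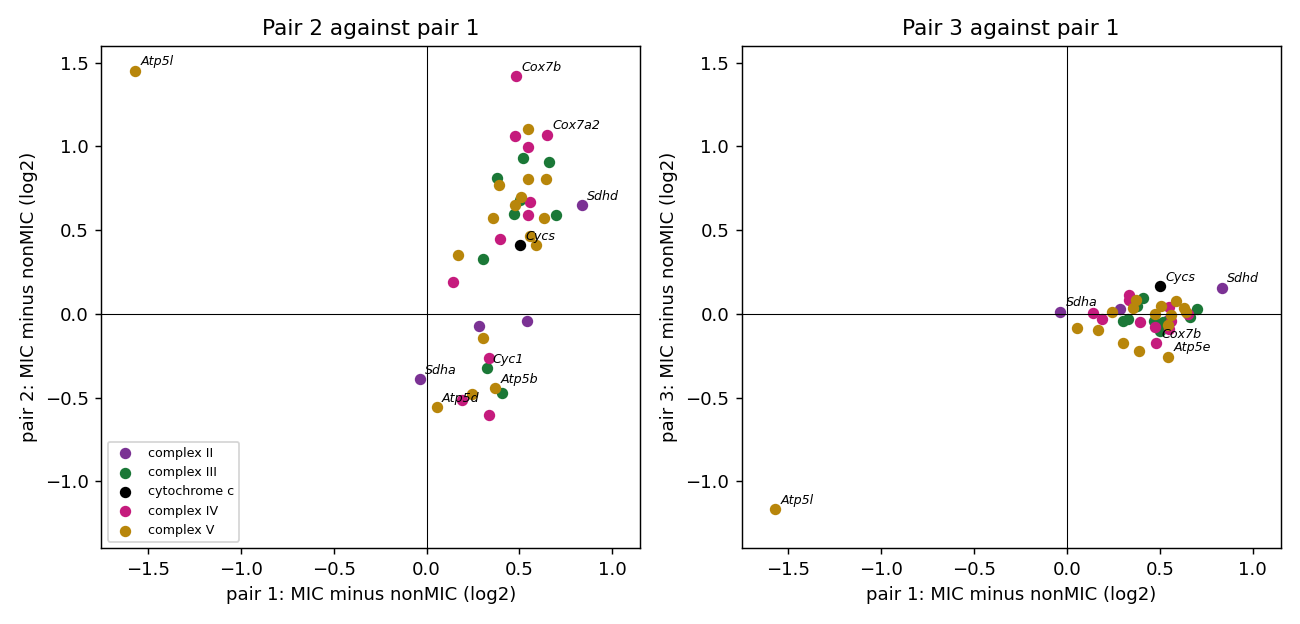
Pair 2 (left) and pair 3 (right) against pair 1 for the 41 members with at least 20 reads in every library, on log2 axes and colored by complex. On the left the members part into a group above 0 in pair 2, with Cox7b at 1.42, and a group below 0, with Atp5d at -0.56, and on the right nearly all lie near 0 in pair 3.

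Other genes of the pathway were read in the same way. The 35 nuclear genes of complex I had a median difference of 0.31, with pair medians of 0.49, 0.40 and 0.00, and 14 were higher in MICs in every pair and 0 lower. Limma called 0 of them with or without the block. The 7 mitochondrially encoded subunit genes in the table had a median difference of -0.28, with 0 of them above 0. Their pair medians were -1.23, 0.94 and -0.44, and all 7 were lower in MICs in pairs 1 and 3 and higher in pair 2. Most nuclear members were higher in pairs 1 and 2, and the members' median in pair 3 was -0.02. Of 38 assembly and regulatory factors in the table, 31 were higher in MICs in pair 1, 27 in pair 2 and 12 in pair 3, with a median of 0.20, and limma called 0, while edgeR and DESeq2, both with the block, each called 1 (2.63%), against the 1.41% and 0.889% of all genes given above. The 81 cytosolic ribosomal protein genes, which belong to no respiratory complex and are also short, had a median difference of 0.33 and pair medians of 0.47, 0.64 and -0.07, close to those of the members. Limma and DESeq2 called 0 of these, and edgeR with the block called 1 (1.23%). No test of a difference between these lists and the members was made.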

How the data were processed

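RNA was sequenced from 3 MIC and 3 non-MIC libraries as stranded mRNA with 75-base paired reads. The deposited signal holds counts per gene that the authors scaled to the library total. The paper describes alignment to the mouse transcriptome (GRCm38/mm10) with Bowtie2, and the submitters' processing notes name STAR and HTSeq, so the counting tool is not settled, and versions are not given in the sources used here. Per the file's values, whole reads were recovered for 99.99% to 100% of values within 0.01 of a read. Every gene was above 0 in at least 3 libraries, which meets the paper's filter. Depth sets counting error only, and reads carried no molecular identifiers. GENCODE vM21 on GRCm38 gave symbols for all but 149 genes, the transcripts for length, GC and shared 75-base words, and RefSeq gave promoters.

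Differences were tested with limma 3.58.1 (R 4.3.3) on log2(value + 1), which understates changes of low genes, with a trend and Benjamini-Hochberg adjustment over 22310 genes. The paper ranks genes without pairing, so the fit without a block came first. Each SE is from that fit unless the block is named, so it includes the spread between replicate numbers. After each group's mean was taken off, libraries with the same replicate number correlated at 0.57, 0.67 and 0.75 over all genes, and libraries with different numbers at -0.19 or below, so the numbers, which come from the labels, were taken to pair the libraries. The recovered reads were tested with edgeR 4.0.16 (quasi-likelihood) and DESeq2 1.42.0. Alternatives covered pseudocount, filter, scaling, block, tool, libraries left out and GC or length centring. All members may be named. Values in every library were given for core subunits, isoforms and, in complexes III, IV and V, the 2 highest and the lowest difference among genes with at least 20 reads throughout. Those of Uqcrc2, Atp5j2 and Uqcr11 were added after the values were seen. The scripts were tested on simulated data. The members and lists were chosen with earlier results of these data known. One of the marker lists is not reported here.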

Additional observations from a re-analysis of the deposited data

How the results depend on the processing

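Called members numbered 0 under all 24 alternatives, which cover pseudocount, filter, scaling, trend, block, tool, libraries left out and centring. Over all genes, calls numbered 0 with limma or edgeR without the block, and 1 with DESeq2 without it. With the replicate block they numbered 29 in limma, 65 in limma with GC and length centring, 315 in edgeR and 133 in DESeq2. With libraries or pairs left out they numbered between 0 and 59. The cause was not tested. The replicate block changed no member's call, and in limma it leaves each difference the same by construction. In edgeR it turned Atp5l from 0.26 to -0.41 and Cyc1 from 0.044 to -0.0088, and in DESeq2 Atp5l from 0.30 to -0.45. Few reads limit the precision for Cox4i2, Cox6a2, Cox6b2 and Cox7a1. The members' median was positive throughout, between 0.15 and 0.51. With GC and length centring, chosen after the data were seen, the cytochrome c difference was 0.095, with or without the block, and the pair 2 median 0.25, or 0.21 with length centring alone. The pair 3 median was 0.011 with quantile normalization, 0.037 with TMM factors, 0.068 with GC centring and 0.098 with length centring.

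Of the 45 members, 28 kept their sign under every alternative and 17 did not. Cyc1 was 0.029 with quantile normalization, 0.14 with GC centring, 0.093 with GC and length centring, with or without the replicate block, 0.044 with edgeR, and 0.071 and 0.022 with DESeq2 without and with the block. Atp5g2 was 0.062 with quantile normalization, 0.19 with GC centring, and 0.014 and 0.024 with DESeq2 without and with the block. Atp5l was 0.26 with edgeR and 0.30 with DESeq2. GC centring gave 0.16 for Cox8a and 0.053 for Atp5d. Length centring gave -0.013 for Uqcrc1, -0.0084 for Atp5b, -0.044 for Cox5a and -0.10 for Cox6a1. GC and length centring gave -0.19 for Cox5a, with or without the block, and quantile normalization gave -0.13 for Atp5b. With libraries or pairs left out, the difference ran from -0.24 to 0.13 for Atp5a1, -0.18 to 0.23 for Atp5b, -0.64 to 0.19 for Atp5d, -0.0081 to 0.86 for Atp5e, -0.16 to 0.12 for Atp5g2, -1.45 to 0.26 for Atp5l, -0.62 to 0.33 for Cox5b, -0.40 to 0.50 for Cox6a1, -0.57 to 0.21 for Cox7a1, -0.61 to 0.42 for Cox8a, -0.23 to 0.17 for Cyc1, -0.074 to 0.38 for Sdhb, -0.022 to 0.16 for Sdhc, -0.17 to 1.04 for Uqcr11, -0.23 to 0.25 for Uqcrc1 and -0.083 to 1.09 for Uqcrq.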
